A study of Homo sapiens with 47 samples.

Results

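The 2 mature arms of the miR-1247 hairpin, hsa-miR-1247-5p and hsa-miR-1247-3p, were followed across 47 small RNA libraries from cultured prostate cancer cells. They are 2 of the 1006 miRNA entries of the count table and were taken by name. Both were chosen with the response to low oxygen and the ratio of the arms in these libraries already known. Those values are therefore given here as a description, with standard errors (SE) and counts of pairs, and without a test.

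The hypoxia group had spent 24 h in a chamber at one of 6 oxygen levels, which were 0% and 0.2%, 0.5% and 1%, and 2% and 5% O2, and the normoxia group held the controls of each level. PC3 is a line from a bone metastasis of prostate cancer, and 22Rv1 (p22rv1 in the labels) is a line from the CWR22R xenograft. Each level had 2 hypoxia libraries and 2 normoxia libraries per line, except 22Rv1 at the 0.2% level, which had 1 normoxia library, giving 12 and 12 libraries in PC3 and 12 and 11 in 22Rv1. Total counts per library were 1742290 to 4327382 in PC3 and 960421 to 3181344 in 22Rv1. The labels name no engineered allele and no other agent, and each line stands for 1 tumour. Whether the replicates were separate cultures is not given, so the p-values below reflect library-to-library spread that could be technical.

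A miRNA hairpin is cut by Drosha in the nucleus and by Dicer in the cytoplasm into a short duplex. Argonaute usually keeps one strand, the guide arm, and the other is mostly lost, so the arms of one hairpin often differ widely in level. The loaded arm recognises target mRNAs mainly through its seed near the 5′ end. MIR1247 lies at the distal end of the imprinted DLK1-DIO3 region, beside DIO3, which encodes the deiodinase that inactivates thyroid hormone. miR-1247-5p has been studied with SOX9 in human chondrocytes and with MYCBP2 in castration-resistant prostate cancer, and miR-1247-3p with B4GALT3 in fibroblasts that take up tumour exosomes.

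The mature arms are shown first, because they differ in the seed and so in the mRNAs they can pair with. Sequences are those of RefSeq (GRCh38.p14), 5′ to 3′, with the seed (bases 2 to 8) in capitals.
hsa-miR-1247-5p: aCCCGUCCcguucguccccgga
hsa-miR-1247-3p: cCCCGGGAacgucgagacuggagc
The 5p arm has 22 bases, 72.7% of them G or C, and lies at chr14:101560362-101560383 on the minus strand. The 3p arm has 24 bases, 70.8% of them G or C, and lies at chr14:101560326-101560349 on the same strand. None of the 2370 human mature miRNAs in the RefSeq table shares either seed. The 868 of them that were matched to the 1006 entries of the count table include no other miRNA with either seed. Neither arm thus has a seed family among the matched entries, and the unmatched entries were not compared.

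The hairpin shows how the arms face each other, with both arms in capitals.
MIR1247 hairpin: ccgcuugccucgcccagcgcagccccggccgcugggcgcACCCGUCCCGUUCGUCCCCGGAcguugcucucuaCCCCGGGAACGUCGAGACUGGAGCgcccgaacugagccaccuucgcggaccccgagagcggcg
It spans chr14:101560287-101560422 and 136 bases. In GENCODE 29 on GRCh38 it lies on the strand of the long noncoding RNA DIO3OS (chr14:101552221-101560431). Exons of 9 of the 12 DIO3OS transcripts overlap the hairpin, and exons of 2 contain it whole. The start of DIO3, on the opposite strand, is 929 bases away. The submitters' processing notes name hg19, so these GRCh38 positions come from a match by name and not from the deposited table.

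The window around the DIO3OS start in RefSeq (250 bases before to 50 after) is shown because it reaches into the hairpin. RefSeq places that start at position 101560422, the 5′ end of the hairpin, and GENCODE 29 places it at 101560431. The window is printed with a match to the core of the hypoxia response element in capitals.
DIO3OS promoter: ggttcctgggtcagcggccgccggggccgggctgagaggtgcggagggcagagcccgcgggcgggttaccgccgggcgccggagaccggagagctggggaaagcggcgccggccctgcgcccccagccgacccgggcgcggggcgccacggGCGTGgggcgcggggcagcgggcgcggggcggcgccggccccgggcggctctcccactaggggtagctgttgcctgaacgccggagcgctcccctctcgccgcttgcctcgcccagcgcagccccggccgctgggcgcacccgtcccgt
ACGTG and GCGTG were searched on both strands, and GCGTG was found once, on the plus strand of the window as printed, at position 152. One of these 5-letter strings occurs in 48.4% of the 35116 promoter windows of this length. The window (chr14:101560373-101560672, minus strand) is 81.7% G or C, a content reached by 1.44% of the windows.

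In PC3 the 3p arm was about 3-fold lower in hypoxia than in normoxia, while the 5p arm, the more abundant one, was lower by a much smaller amount. Levels are CPM, read counts relative to library size, after edgeR's TMM scaling. miR-1247-3p was at 1.45, 5.88 and 11.6 CPM in hypoxia (lowest, median and highest library), against 11.8, 17.2 and 24.7 CPM in normoxia. Its mean was 5.82 ± 2.73 CPM in hypoxia and 17.1 ± 3.90 CPM in normoxia (SD, n = 12 each). All 12 hypoxia libraries were thus below all 12 normoxia libraries, but only just: hypoxia replicate 2 at 0.5% O2 had 11.6 CPM and normoxia replicate 2 of the 2% level had 11.8 CPM. With TMM factors computed over both lines these libraries stood at 13.27 and 13.26 CPM. In the authors' deposited table the highest hypoxia library had 9.91 CPM and the lowest normoxia library 9.15 CPM. Under both of these scalings the groups thus overlapped, while with library size alone they stayed just apart.

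The counts behind these levels were small. The 3p arm had 3, 14.5 and 31 counts in hypoxia libraries (lowest, median and highest) and 20, 49.5 and 102 counts in normoxia libraries. Summed over libraries, there were 178 counts in hypoxia and 636 in normoxia, a ratio of CPM of 0.334 with an exact 95% interval of 0.281 to 0.395. Such intervals cover counting error only and leave out the spread between libraries. The reads carry no molecular identifiers, so copies of one molecule count as separate reads and the intervals may be too narrow. In bulk RNA, fewer cells of a type and less RNA per cell cannot be told apart.

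miR-1247-5p was at 61.5, 78.3 and 134 CPM in PC3 hypoxia (lowest, median and highest), against 63.9, 93.6 and 144 CPM in normoxia. Its mean was 80.3 ± 19.99 CPM in hypoxia and 98.3 ± 20.8 CPM in normoxia (SD, n = 12 each). These groups overlapped over most of their range. Summed counts were 2408 in hypoxia and 3587 in normoxia, a ratio of CPM of 0.801 (exact 95% interval 0.760 to 0.843).

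**Figure D1:**
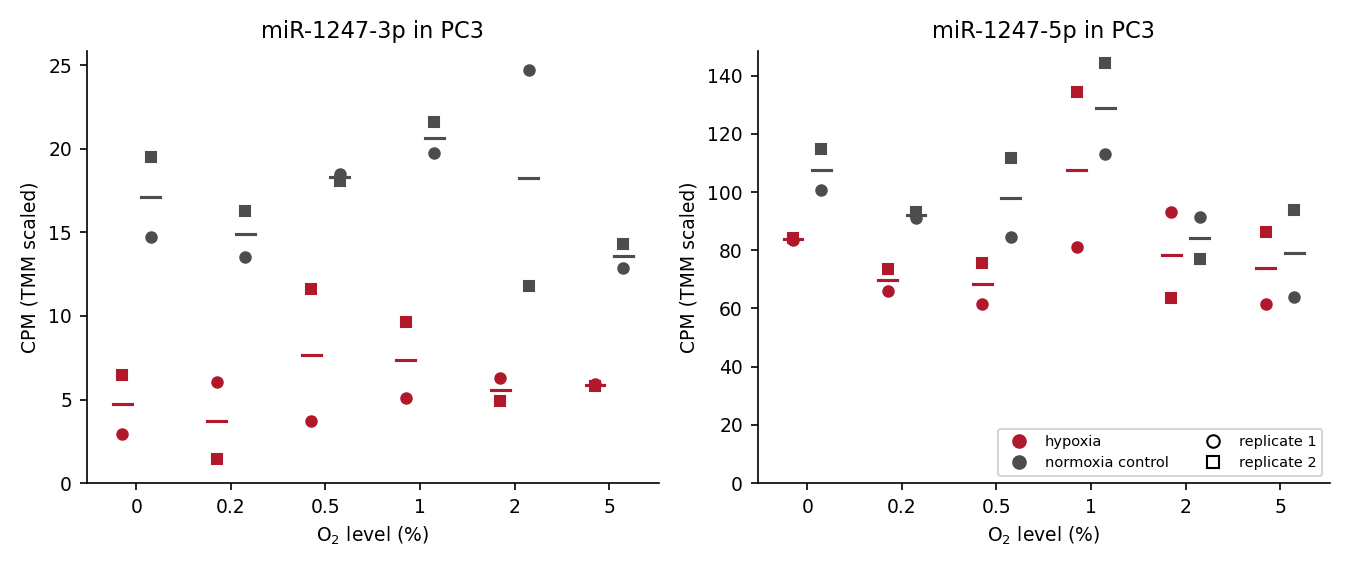
TMM-scaled CPM of miR-1247-3p (left) and miR-1247-5p (right) in each PC3 library by O2 level, with hypoxia libraries in red left of their normoxia controls in grey, circles for replicate 1, squares for replicate 2 and a line at each mean (n = 2). The 3p arm lies below its controls at each level, from 1.45 to 11.6 CPM in hypoxia and from 11.8 to 24.7 CPM in normoxia, while the 5p groups overlap.

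In the edgeR fit the mean log2 difference over the 6 levels, hypoxia over normoxia, was -1.58 (SE 0.19) for miR-1247-3p, a fold of 0.334. It was -0.29 (SE 0.098) for miR-1247-5p, a fold of 0.816. By this difference the 3p arm ranked first among the 463 tested miRNAs on the lower side and the 5p arm 35th. The next lowest were miR-551b-5p at -0.96 and miR-181b-3p at -0.75, and the median of all tested miRNAs was -0.004. By abundance the 5p arm ranked 196th (mean 89.3 CPM) and the 3p arm 333rd (mean 11.5 CPM). In that contrast 51 of 463 miRNAs (11.0%) had an adjusted p below 0.05 in either direction, and 109 had one with a replicate block that pairs the libraries. The 3p arm was the only miRNA with every hypoxia library below every normoxia library, 1 of 463 or 0.216%. Because the arms were chosen on this contrast, nothing is read from these shares.

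Within pairs of the same level and replicate number, the 3p arm was lower in hypoxia in 12 of 12 PC3 pairs. The pair differences ran from -3.49 to -0.64 on the log2 scale (mean -1.69, SD 0.77). The 5p arm was lower in 11 of 12 pairs, from -0.56 to 0.03 (mean -0.30, SD 0.19). The exception was replicate 1 at 2% O2, with 93.1 CPM in hypoxia and 91.3 CPM in normoxia, where the 3p arm had 6.28 CPM in hypoxia and 24.7 CPM in normoxia.

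By level, the log2 difference of miR-1247-3p in PC3 was -1.86 at 0%, -1.86 at 0.2%, -1.26 at 0.5%, -1.50 at 1%, -1.83 at 2% and -1.20 at 5% O2, with SE from 0.44 to 0.49. The ranges of 1 SE around the 6 values all overlapped, so no order by oxygen could be read. For miR-1247-5p the values in the same order of levels were -0.36, -0.40, -0.52, -0.26, -0.12 and -0.10, with SE of about 0.24. With 2 libraries a group, single libraries weighed heavily. At 0% O2 the 3p value was -2.52 without hypoxia replicate 2. At 0.2% O2 it was -3.32 without hypoxia replicate 1. At 0.5% O2 it was -0.67 without hypoxia replicate 1 and -2.29 without hypoxia replicate 2. At 2% O2 it was -1.11 without normoxia replicate 1. The 3p value was below 0 in each of the 24 fits that left out a library of the level. The 5p value was 0.05 at 1% O2 without hypoxia replicate 1, 0.13 at 2% without hypoxia replicate 2 and 0.19 at 5% without normoxia replicate 2.

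**Figure D2:**
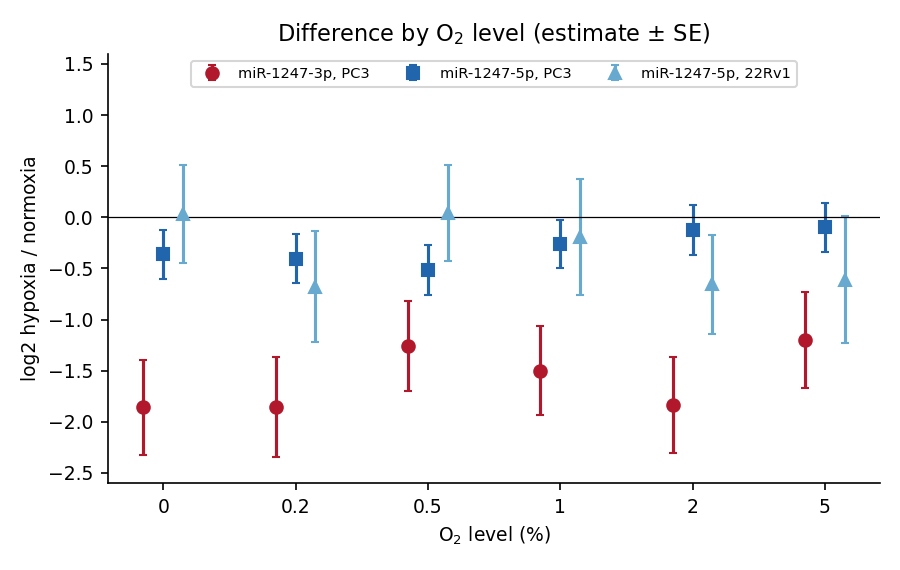
Log2 difference of hypoxia over normoxia by O2 level, as the edgeR estimate ± SE, for miR-1247-3p in PC3 (red circles), miR-1247-5p in PC3 (dark blue squares) and miR-1247-5p in 22Rv1 (light blue triangles). The 3p arm in PC3 lies between -1.86 and -1.20, and the 5p arm between -0.52 and -0.10 in PC3 and between -0.68 and 0.04 in 22Rv1.

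The unequal differences of the arms appear as a smaller 3p share of all miR-1247 counts in PC3 hypoxia. The share was 1.94, 6.52 and 13.3% in hypoxia libraries (lowest, median and highest), against 12.8, 14.2 and 21.3% in normoxia libraries. Its mean was 6.75 ± 2.80% in hypoxia and 14.9 ± 2.56% in normoxia (SD, n = 12 each). The groups overlapped through hypoxia replicate 2 at 0.5% O2, whose 13.3% lay above the lowest normoxia library. Over all libraries the share was 6.88% of 2586 counts in hypoxia (95% Wilson interval 5.97 to 7.92%) and 15.1% of 4223 counts in normoxia (14.01 to 16.2%).

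As a log2 ratio, (5p + 0.5 counts) over (3p + 0.5 counts), the arms stood at 3.86 ± 0.69 in PC3 hypoxia and 2.51 ± 0.27 in PC3 normoxia (SD, n = 12 each). The pair change was 1.35 on average (SD 0.74) and above 0 in 12 of 12 pairs. It was smallest, 0.07, in replicate 2 at 0.5% O2 and largest, 2.94, in replicate 2 at 0.2% O2, where the hypoxia library held 3 counts of the 3p arm. This ratio is taken within a library, so the scaling of libraries does not enter it.

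**Figure D3:**
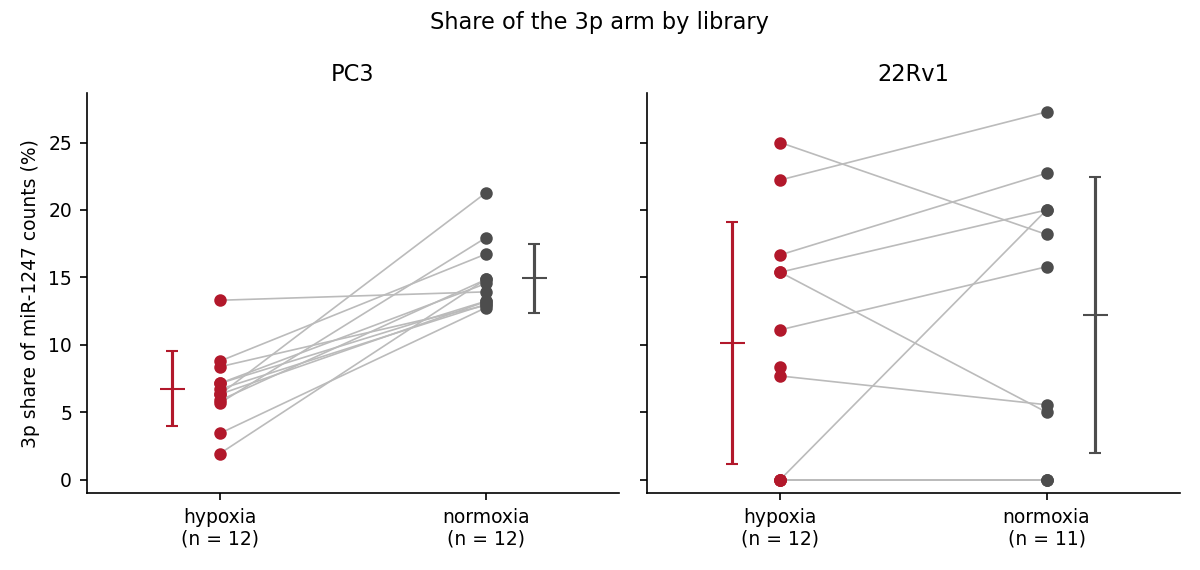
Share of the 3p arm among miR-1247 counts (%) in each library of PC3 (left) and 22Rv1 (right), hypoxia in red left of normoxia in grey, with lines joining pairs of the same level and number and bars for the mean ± SD. In PC3 the share averages 6.75% in hypoxia and 14.9% in normoxia, and in 22Rv1 10.1% in hypoxia and 12.2% in normoxia, with libraries from 0 to 27.3%.

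Among 120 hairpins with both arms tested in PC3, miR-1247 had the largest change in arm ratio between hypoxia and normoxia. The median change was 0.02, and the 5th and 95th percentiles were -0.35 and 0.35. A change of the same sign in all 12 pairs was seen in 5 of the 120 hairpins, miR-1247 among them. No hairpin had arm ratios that did not overlap between hypoxia and normoxia libraries, 0 of 120 or 0.0%. For the 36 hairpins whose less abundant arm averaged 5 to 20 CPM, the band that holds the 3p arm of miR-1247, changes ran from -0.70 to 1.35, the upper end being miR-1247 itself. In 77 of the 120 hairpins the less abundant arm was below 0 in the mean difference, as was the more abundant arm in 55. Medians were -0.06 for the less abundant arms and 0.01 for the more abundant ones.

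**Figure D4:**
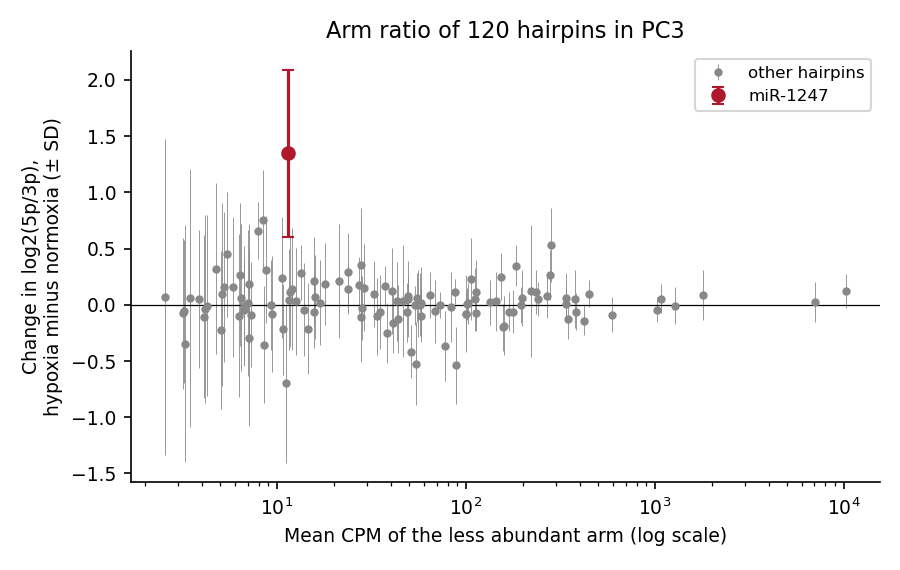
Change in log2(5p/3p), hypoxia minus normoxia, as mean ± SD over 12 PC3 pairs, against the mean CPM of the less abundant arm (log scale) for 120 hairpins. miR-1247 (red) stands at 1.35, and the median of all hairpins is 0.02.

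In 22Rv1 both arms were near the lower limit of what these libraries measure. miR-1247-5p had 3, 9.5 and 12 counts in hypoxia libraries (lowest, median and highest) and 7, 12 and 19 counts in normoxia libraries. Its mean was 3.97 ± 1.27 CPM in hypoxia (n = 12) and 5.17 ± 2.19 CPM in normoxia (n = 11, SD). The groups overlapped widely, and the highest library, normoxia replicate 1 of the 5% level, reached 10.4 CPM on 7 counts.

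The mean log2 difference of miR-1247-5p in 22Rv1 was -0.34 (SE 0.22), with lower values in hypoxia in 8 of 11 pairs. By level it was 0.03 at 0%, -0.68 at 0.2%, 0.04 at 0.5%, -0.19 at 1%, -0.66 at 2% and -0.61 at 5% O2, with SE from 0.47 to 0.62. Leaving out single libraries changed its sign at 4 of the 6 levels. At 0% O2 it was 0.72 without normoxia replicate 1 and -0.46 without normoxia replicate 2. At 0.2% O2 it was -1.05 without hypoxia replicate 1 and -0.27 without hypoxia replicate 2. At 0.5% O2 it was -0.28 without hypoxia replicate 1 and -0.10 without normoxia replicate 2. At 1% O2 it was 0.03 without hypoxia replicate 1. At 5% O2 it was 0.03 without normoxia replicate 1 and -1.57 without normoxia replicate 2. The difference between the lines in the mean 5p response, PC3 minus 22Rv1, was 0.03 (SE 0.21).

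miR-1247-3p had 0 to 2 counts in 22Rv1 hypoxia libraries and 0 to 5 counts in normoxia libraries. It was at 0 in 4 of 12 hypoxia libraries and in 3 of 11 normoxia libraries. A count of 0 allows up to 3 counts, which is 1.005 to 3.12 CPM in these 7 libraries, relative to total counts and without TMM scaling. A response of the 3p arm was therefore not measurable library by library. Summed counts were 13 in hypoxia and 20 in normoxia, a ratio of CPM of 0.640 with an exact 95% interval of 0.292 to 1.35. That interval holds both no difference and the ratio of 0.334 found in PC3. For the 5p arm the summed ratio was 0.784 (0.602 to 1.02), on 106 counts in hypoxia and 133 in normoxia. The 3p share in 22Rv1 was 10.9% of 119 counts in hypoxia (6.50 to 17.8%) and 13.1% of 153 counts in normoxia (8.62 to 19.3%), and the mean pair change in log2 ratio was -0.004 (SD 1.09).

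Both arms were many times higher in PC3 than in 22Rv1. In normoxia, with TMM factors over both lines, miR-1247-5p averaged 114 ± 24.6 CPM in PC3 (n = 12) and 4.42 ± 1.86 CPM in 22Rv1 (n = 11, SD). miR-1247-3p averaged 19.9 ± 4.49 CPM in PC3 and 0.585 ± 0.534 CPM in 22Rv1. All PC3 normoxia libraries were above all 22Rv1 normoxia libraries for both arms, as they were for 176 of 613 miRNAs (28.7%). The log2 difference, PC3 over 22Rv1, was 4.75 (SE 0.15) for the 5p arm, with an adjusted p of 1.08e-26 in edgeR's quasi-likelihood test. For the 3p arm the estimate was 5.06 (SE 0.29), given without a test, because this arm passed the filter on low counts through its PC3 libraries and so had to differ. In this comparison 527 of 613 miRNAs (86.0%) had an adjusted p below 0.05, and being called says little about the arms. Scaling by library size alone moved the median of all miRNAs to -0.60, from -0.15 with TMM, and gave 4.28 for the 5p arm and 4.60 for the 3p arm.

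The normoxia controls are labelled as a separate set for each O2 level, and the arms were compared between these sets. In PC3 normoxia the set means ran over 0.70 on the log2 scale for the 5p arm and 0.60 for the 3p arm, each with an adjusted p of 0.9998 in edgeR's quasi-likelihood F test. PC3 libraries split by replicate number on the first principal component, with replicate 1 at -0.07 or below and replicate 2 at 0.97 or above. The F test had no replicate term and counts such a shift as spread within a set. A large p therefore does not show that the sets are alike. In 22Rv1 the 5p range was 0.86, with an adjusted p of 0.996 in that test. Without normoxia replicate 2 of the 5% level that range was 1.73, with an adjusted p of 0.794. edgeR called 0 of 463 miRNAs in PC3 (0.0%) and 0 of 552 in 22Rv1 (0.0%), with 13 and 3 at an unadjusted p below 0.05, and DESeq2 called 2 and 0. Without 22Rv1 normoxia replicate 2 of the 5% level, edgeR called 2 miRNAs in 22Rv1 and 48 had an unadjusted p below 0.05. Without PC3 normoxia replicate 1 of the 0.5% level, it called 1 in PC3. For the 5p arm in PC3 the unadjusted p was 0.0776.

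Other miRNAs of the DLK1-DIO3 region, which are made from the long transcripts around MEG3 and MEG8, were set beside miR-1247. Of 50 hairpin names on the list, 19 mature entries were in the table and 8 were tested in PC3. None of the 8 had an adjusted p below 0.05 in the mean hypoxia contrast in edgeR (smallest adjusted p 0.0899). Over all miRNAs the share was the 11.0% given above. For 8 miRNAs at low levels (2.39 to 20.7 CPM in PC3 normoxia), 0 calls is not far from that share, and nothing is read from it. Their median log2 difference was -0.14, from -0.49 to 0.36, against -0.004 over all tested miRNAs. In normoxia miR-411-5p was at 20.7 CPM in PC3 and 0.239 CPM in 22Rv1, and miR-409-3p at 12.3 CPM in PC3 and 0.372 CPM in 22Rv1. miR-654-3p was at 7.35 CPM in PC3 and 0.0616 CPM in 22Rv1, and miR-494-3p at 10.3 CPM in PC3 and 1.06 CPM in 22Rv1. These 4 had the smallest p of the list between the lines. Of the other 4, miR-381-3p had 7.88 CPM in PC3 and 0.404 CPM in 22Rv1, and miR-410-3p had 6.84 CPM in PC3 and 0.845 CPM in 22Rv1. miR-369-3p differed less, with 3.81 CPM in PC3 and 1.79 CPM in 22Rv1, and miR-127-3p lay the other way, with 2.39 CPM in PC3 and 3.47 CPM in 22Rv1. Apart from miR-127-3p, which was also tested in 22Rv1 alone, they entered the test through PC3, as the 3p arm did.

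The miRNAs whose CPM followed the arms most closely over the 24 PC3 libraries were ranked by Spearman's rho. For miR-1247-3p these were miR-222-5p (rho 0.83), miR-128-1-5p (0.81) and miR-4521 (0.76), out of 292 miRNAs. For miR-1247-5p they were miR-766-3p (0.72), miR-4521 (0.60) and miR-29b-1-5p (0.53), out of 291. The arms had a rho of 0.70 with each other. In 22Rv1, over 23 libraries, the 5p arm was closest to miR-10b-5p (0.65), miR-532-5p (0.64) and miR-92a-3p (0.61), out of 323. The points share libraries, scaling and the hypoxia groups, so these values are descriptions.

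miRNAs as rich in G and C, or as long, had differences centred near 0 in PC3. For 411 of the 463 tested miRNAs (88.8%) a RefSeq sequence was found. The 25 with at least 70% G or C, the arms among them, had a median PC3 difference of 0.01, and the others ran from -0.44 to 0.68. The 19 with at least 24 bases had a median of 0.04.

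The hypoxia marker miR-210, a target of HIF, was higher in hypoxia in both lines. In PC3 the log2 difference was 0.70 for miR-210-3p and 0.68 for miR-210-5p (adjusted p of 1.05e-07 and 1.61e-06 in edgeR). In 22Rv1 it was 1.01 and 1.57 (2.80e-09 and 3.74e-08). PC3 libraries had high miR-221-3p, miR-222-3p and miR-31-5p and low miR-141-3p and miR-200c-3p, epithelial miRNAs, while 22Rv1 libraries had the opposite. Not all miRNAs of this epithelial family were low in PC3. The more abundant arms of miR-200b and miR-200a averaged 5439 and 1616 CPM there, with TMM factors over PC3 alone. Median CPM of miR-222-3p was 30280 in PC3 and 45.6 in 22Rv1, and that of miR-141-3p 8.53 in PC3 and 10378 in 22Rv1. Of 8 markers of other cell types, summed CPM was highest in the PC3 replicate 1 pair of the 5% level, at 1738 in hypoxia and 1878 in normoxia, mostly miR-143-3p, a smooth muscle and fibroblast miRNA. Over PC3 libraries the sum of the 8 ran from 320 to 1738 CPM in hypoxia and from 328 to 1878 CPM in normoxia. One of the 8, the neuronal miR-9-5p, was present in every library, at 300 to 595 CPM in PC3 (median 395) and 341 to 632 CPM in 22Rv1. In PC3 miR-145-5p, miR-142-3p, miR-451a and miR-124-3p were at 0 in at least 1 library. Without that pair the PC3 mean difference was -1.60 for the 3p arm and -0.30 for the 5p arm.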

How the data were processed

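Small RNA libraries of PC3 and 22Rv1 cells (TruSeq Small RNA, total RNA from miRNeasy columns, per the labels' protocols) were available as 2 tables of 1006 miRNA entries. The first holds counts as the authors deposited them, and no per-sample column was left unused. The second holds CPM, which the authors scaled with TMM factors. In each library it equalled the counts times a constant (largest relative difference 2.55e-09). The submitters' processing notes name hg19 and FastQC, while for aligner and counter the name was not given in the sources used here.

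From the counts, edgeR 4.0.16 (R 4.3.3) fitted a quasi-likelihood model with robust dispersion, TMM factors and 1 mean per line, level and condition. Each line was fitted alone for the hypoxia response, and both together for differences between lines. Testing required 5 CPM or more in 2 or more libraries, which left 463 miRNAs in PC3, 552 in 22Rv1 and 613 over both, with Benjamini-Hochberg adjustment over all of them and a threshold of 0.05. The code was tested on simulated data. The arm ratio used a pseudocount of 0.5 counts. Alternatives were other scalings (DESeq2 1.42.0 size factors, library size, the authors' factors), no filter, the DESeq2 test, a replicate block and leaving out libraries. The numbers were taken to pair hypoxia with normoxia libraries. The difference of replicate 1 and replicate 2 in hypoxia correlated with that in normoxia at each level compared (0.30 to 0.66 in PC3, 0.11 to 0.40 in 22Rv1). In PC3 a shift shared by all libraries of a replicate number would give such correlations too. They therefore cannot show a pairing within a level.

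The members and lists were chosen with earlier results of these data known. Named beside the arms were the 3 miRNAs per line closest to an arm by Spearman's rho (mean of at least 20 CPM, for arms with a median of at least 5 counts), miRNAs sharing a seed, up to 4 of the DLK1-DIO3 list called in a fit by smallest p, and both arms of miR-210. miR-551b-5p and miR-181b-3p were named after their values were seen. Mature, hairpin and promoter sequences came from RefSeq (GRCh38.p14).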

Additional observations from a re-analysis of the deposited data

How the results depend on the processing

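The PC3 mean difference of miR-1247-3p ran from -1.63 to -1.56 over 7 other settings and from -1.83 to -1.46 when single libraries were left out. That of miR-1247-5p ran from -0.33 to -0.29 and from -0.36 to -0.23. With the replicate block, which pairs the libraries, they were -1.56 (SE 0.16) and -0.29 (SE 0.053), and the block raised the calls over all PC3 miRNAs to 109, against 51 without it. It changed no call of the 5p difference between the lines, and it was not run on the control sets. The PC3 arm ratio change stayed between 1.20 and 1.46 over all of its alternatives, and the 22Rv1 one, near 0, between -0.27 and 0.31. The 22Rv1 5p difference stayed between -0.51 and -0.23, and the line difference of the 5p response lay between -0.08 and 0.21. Between the lines in normoxia the 5p arm kept its direction and call in all 55 alternatives, from 4.28 to 4.85. The 3p estimate, whose direction the filter fixes, ran from 4.60 to 5.71. The control sets passed the threshold for neither arm under any alternative run, with log2 ranges from 0.52 to 0.98 for the 5p arm and from 0.49 to 0.86 for the 3p arm in PC3 and from 0.74 to 1.73 for the 5p arm in 22Rv1.

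For the PC3 3p arm the gap between the lowest normoxia and the highest hypoxia library was taken on the log2 scale. It was -0.11 with the authors' factors, -0.000718 with TMM over both lines and 0.032 with library size alone. Values below 0 mean that the groups overlapped. These 3 scalings were chosen for the gap after seeing the data. The cause of the change in sign was not tested. Of the DLK1-DIO3 list, 1 miRNA was called with library size alone, and from 0 to 1 when single libraries were left out, the 1 without PC3 hypoxia replicate 1 at 0% O2. With single libraries left out, the PC3 5p difference ran from -0.65 to 0.052 at 1% O2, from -0.41 to 0.13 at 2% and from -0.37 to 0.19 at 5%, and the 22Rv1 one from -1.57 to 0.026 at 5%. Without the 3 22Rv1 libraries that stood apart on the first principal component, an alternative added after seeing the data, the last was 0.024. The arm ratio from summed counts per group was not run in 22Rv1, where a group had 0 counts of the 3p arm. Depth limits the 22Rv1 values, which rest on 0 to 19 counts a library.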
